A study of Mus musculus with 6 samples.

Results

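The genes described here carry out mitosis: 46 genes for mitotic kinases, the spindle checkpoint, the kinetochore, spindle motors, chromosome condensation, cytokinesis and the exit from mitosis. They were taken by name from the table of all loci. All 46 were found, and *Cenpa* was listed at 2 loci, so that 47 of the 24402 loci in the table are described. In each of the 47 the mean of the genotypes reached 1 FPKM (fragments per kilobase of transcript and unit of library size, a level corrected for transcript length and depth), and so did 12701 of all loci, which form the background below.

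mRNA was profiled in whole lungs of C57BL/6 embryos at 12.5 *dpc* (days post coitus), from wild-type littermates (control) and from *Yap*-flox/flox; *Shh*-Cre/+ embryos (*Yap* mutant), with 3 libraries for each genotype. *Shh*-Cre deletes *Yap*, which encodes the effector of Hippo signaling, in the lung epithelium and leaves it in the mesenchyme, and the *Shh*-Cre allele itself takes the place of a functional copy of *Shh* that the control lungs keep. The deposited table gives 1 FPKM value for each genotype, the authors' value over its libraries. The spread between libraries is therefore not known, no test could be run, and every ratio below is a description of these 2 values: "lower" and "higher" state the order of the values and not a difference beyond replicate error.

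Entry into mitosis is driven by the kinase CDK1 with A- and B-type cyclins, and aurora and polo-like kinases then shape the spindle. Microtubules are held by kinetochores built on centromeric chromatin, and the spindle checkpoint restrains the anaphase-promoting complex until every chromosome is attached, after which separase frees the sister chromatids and a contractile ring divides the cell. Transcripts of most of these genes build up in G2 and M phase and are low in cells that do not divide, so that in embryonic lung, where epithelium and mesenchyme both proliferate, they come from dividing cells of every kind.

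Much of this G2/M timing is set at the promoter, by a short word close to the transcription start called the cell cycle genes homology region (CHR, TTTGAA) and by CCAAT boxes upstream of it that the factor NF-Y binds. The CHR is bound by the MuvB core, with the pocket proteins p107 and p130 and E2F4 in resting cells (the DREAM complex) and with B-MYB and FOXM1 in cycling cells. Promoters from RefSeq (build GRCm38.p6, 250 bases before to 50 after each annotated start) were found for 39 of the 46 genes, 42 promoters in all. None was found for *Aurkb*, *Ccna2*, *Incenp*, *Kif20a*, *Smc4*, *Spc24* and *Tpx2*. The bases around the CHR nearest the start are given for an example gene of each functional group, 5′ to 3′ on its strand. The example is the most abundant gene of the group among those with a promoter and the word. It was picked for having the word and does not show what the other genes of its group have. Capitals mark the CHR, read as TTTGAA on one strand and as TTCAAA on the other. They also mark the NF-Y box, which reads CCAAT or, on the other strand, ATTGG. A further word in capitals, GGAATG, is bound by TEAD factors, the partners through which YAP acts on DNA, and reads CATTCC on the other strand.
*Bub3* (chr7:131560287-131560342, plus strand): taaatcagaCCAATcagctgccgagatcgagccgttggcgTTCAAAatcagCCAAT
*Kif22* (chr7:127042422-127042477, minus strand): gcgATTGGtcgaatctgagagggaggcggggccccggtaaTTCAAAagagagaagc
*Cdk1* (chr10:69352912-69352967, minus strand): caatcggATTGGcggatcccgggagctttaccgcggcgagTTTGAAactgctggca
*Racgap1* (chr15:99651636-99651691, minus strand): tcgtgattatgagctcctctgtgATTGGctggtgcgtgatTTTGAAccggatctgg
*Cenpa* (chr5:30666862-30666917, plus strand): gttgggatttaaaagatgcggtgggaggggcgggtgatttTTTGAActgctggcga
*Cdca8* (chr4:124936889-124936944, minus strand): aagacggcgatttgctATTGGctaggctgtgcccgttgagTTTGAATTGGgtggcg
*Ube2c* (chr2:164769860-164769915, plus strand): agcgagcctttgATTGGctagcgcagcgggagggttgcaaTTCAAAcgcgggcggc
*Top2a* (chr11:99024197-99024252, minus strand): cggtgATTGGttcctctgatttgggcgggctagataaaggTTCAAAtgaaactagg
In the windows of *Kif22*, *Cdk1*, *Racgap1*, *Cdca8*, *Ube2c*, *Top2a* and *Bub3* a CCAAT box lay upstream of the CHR within the printed bases. In *Cenpa* the nearest upstream box was 102 bases away and lies outside the window. The CHR and a CCAAT box overlapped in *Cdca8*, where the letters run together as TTTGAATTGG.

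TTTGAA, searched on both strands, was present in the promoters of 30 of the 39 genes (76.9%), against 20.2% of the 27025 genes with a RefSeq promoter in the same table and 13.8% of the 9294 genes with a promoter and a locus of at least 1 FPKM. Counted by promoter, it was in 33 of 42 (78.6%) and in 17.9% of all 32851. When only words starting between -60 and 20 of the start (the start being 1) were counted, 20 of the 39 genes (51.3%) had it, against 5.15% of all genes. CCAAT was present in 29 of the 39 (74.4%), against 41.1% of all genes, and 26 genes had both words while 6 had neither. The related word TTCGAA was in 3 genes (7.69%; *Bub1*, *Bub1b* and *Top2a*), against 1.80%. GGAATG was in 4 genes (10.3%; *Mad2l1*, *Nusap1*, *Racgap1* and *Ube2c*), against 16.6% of all genes. The words can overlap one another, and a match is a description of the letters only.

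The CHR nearest the start began at a median of position 3 in the 33 promoters that had it, from -167 to 41. In 29 of them a CCAAT box lay upstream, at a median of 35 bases, and in 17 the spacing was from 25 to 45 bases. The spacing was not measured in the promoters of other genes. *Bub3*, *Ect2* and *Prc1* each have 2 overlapping promoters that share the same pair of words, so these pairs were counted more than once. The genes of the anaphase-promoting complex and separase group had both words in all 3 promoters, and the cyclin and kinase genes with a promoter had CCAAT in all 5 and TTTGAA in 4. The checkpoint genes had TTTGAA in 3 of 5, *Bub1* and *Mad2l1* being without it.

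**Figure D1:**
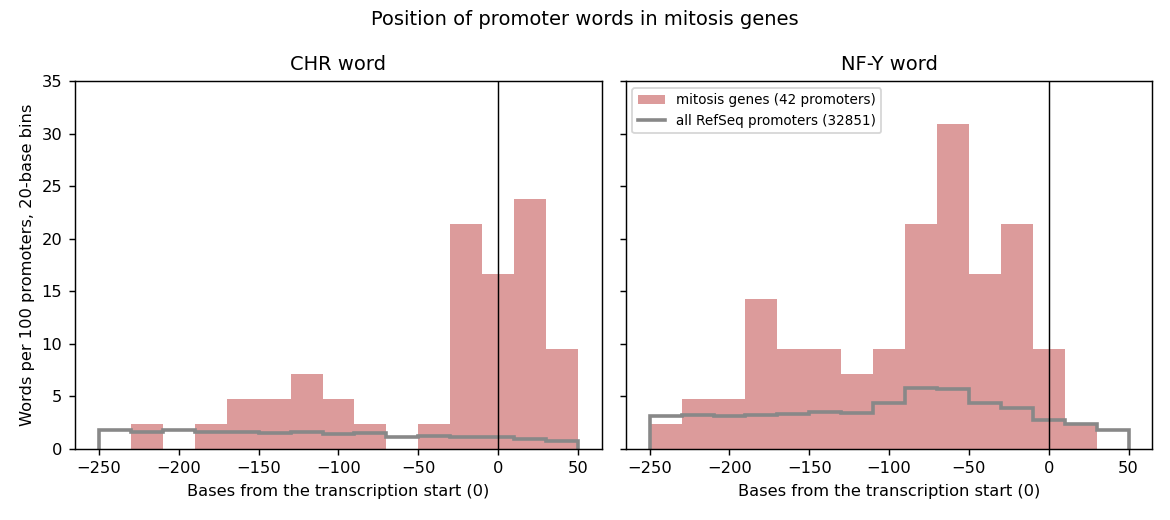
Position of the CHR word (TTTGAA, left) and the NF-Y word (CCAAT, right) in the 42 promoters of the mitosis genes (filled bars) and in all 32851 RefSeq promoters (grey line), as words per 100 promoters in bins of 20 bases from the annotated start. The CHR word of the mitosis genes gathers around the start and the NF-Y word some bases upstream of it. The grey line of the NF-Y word also rises upstream of the start, to 5.78 words per 100 promoters, and that of the CHR word stays low across the window.

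The median log2 ratio of the 30 genes with TTTGAA was -0.14. That of the 9 genes without it, among them *Bub1* with the related TTCGAA, was -0.15. With CCAAT the median of 29 genes was -0.15 and without it that of 10 genes was -0.13. Whether a word bears on the ratio of its gene was not tested. The 4 genes with GGAATG were lower in the mutant, with a median of -0.15, and so were 32 of the 35 without it, with a median of -0.14. A promoter is shown in full for 3 genes at the ends of the range, with the same words in capitals. *Ube2c*, the gene with the highest level, has several CCAAT boxes, a CHR and a TEAD word, at chr2:164769679-164769978 on the plus strand.
*Ube2c*: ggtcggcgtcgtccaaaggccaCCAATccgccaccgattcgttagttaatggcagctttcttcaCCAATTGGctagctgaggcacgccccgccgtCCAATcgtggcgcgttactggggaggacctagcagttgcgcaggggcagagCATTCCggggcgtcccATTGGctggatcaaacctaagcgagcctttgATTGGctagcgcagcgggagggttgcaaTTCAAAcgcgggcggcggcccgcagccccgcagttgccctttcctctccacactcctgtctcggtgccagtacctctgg
*Mad2l1*, with the lowest ratio of the 47 loci, has neither CHR nor CCAAT in this window, and a TEAD word after the start, at chr6:66534971-66535270 on the plus strand.
*Mad2l1*: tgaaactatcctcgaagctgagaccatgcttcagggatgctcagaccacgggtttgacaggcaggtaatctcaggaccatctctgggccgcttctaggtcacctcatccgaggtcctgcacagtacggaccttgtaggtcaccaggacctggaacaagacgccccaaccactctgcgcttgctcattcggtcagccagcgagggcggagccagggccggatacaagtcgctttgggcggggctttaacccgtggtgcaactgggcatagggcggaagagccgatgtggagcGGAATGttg
*Cenpf*, with the highest ratio, has a CHR at position 3 and 2 CCAAT boxes, at chr1:189688037-189688336 on the minus strand.
*Cenpf*: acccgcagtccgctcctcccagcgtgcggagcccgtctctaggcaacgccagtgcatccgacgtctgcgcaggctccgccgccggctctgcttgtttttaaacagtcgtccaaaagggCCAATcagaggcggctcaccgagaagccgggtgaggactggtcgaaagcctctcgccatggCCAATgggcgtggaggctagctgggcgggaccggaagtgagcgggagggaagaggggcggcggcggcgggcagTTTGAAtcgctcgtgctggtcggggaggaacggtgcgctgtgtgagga

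The mitosis genes were slightly lower in *Yap* mutant lungs than in control lungs, and nearly all of them in the same direction. Of the 47 loci, 43 (91.5%) had a lower FPKM in the mutant, against 51.8% of the 12701 loci of the background, and 26 (55.3%) were at least 1.1-fold lower, against 19.5%. None was at least 1.1-fold higher, against 21.9% of the background. The median log2 ratio was -0.15, that is -9.67%, with the middle 50% of loci from -0.20 to -0.09, beside a median of -0.01 over all 12701 loci. With both genotypes scaled to the same total FPKM over all loci (538651 in control and 522467 in mutant lungs as deposited), 42 of the 47 were lower, against 39.9% of the background, and 15 were at least 1.1-fold lower, against 14.1%. The summed FPKM of the 47 loci was 2536 in control and 2287 in mutant lungs.

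The differences were small. At least 1.2-fold lower were *Mad2l1*, *Kif23* and *Aurka*, 3 of the 47 (6.38%), which is near the 8.94% of the background. Within 1.1-fold stayed 21 loci (44.7%). Of the background loci 19.5% were at least 1.1-fold lower and 21.9% at least 1.1-fold higher, and the rest stayed within 1.1-fold. The ratios ran from -0.32 for *Mad2l1* to 0.11 for *Cenpf*. Just past the 1.1-fold line stood *Ccnb1*, at 99.4 FPKM in control and 90.3 in mutant lungs. Just inside it was *Espl1*, at 18.1 and 16.5.

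The background itself varied with the level, and the mitosis genes are abundant: their median control level, 45.1 FPKM, was above that of 84.5% of the background loci. Among the 7301 loci whose mean reached 10 FPKM, 59.5% were lower in the mutant and 17.6% at least 1.1-fold lower, with a median log2 ratio of -0.03. None of the mitosis loci with a mean under 20 FPKM was at least 1.1-fold lower: 0 of 5 between 10 and 20 FPKM, against 16.6% of all loci there, 0 of 1 between 5 and 10, against 16.9%, and 0 of 1 between 1 and 5, against 25.8%. Even so, 4 of the 5 between 10 and 20 FPKM were lower, against 52.9% of all loci there. Their median log2 ratio was -0.13, against -0.01. The locus between 5 and 10 FPKM had a ratio of -0.13, and that between 1 and 5 FPKM a ratio of 0.01. Between 20 and 50 FPKM 19 of the 21 mitosis loci were lower, against 62.4% of all loci of that range, and 13 were at least 1.1-fold lower, against 17.7%. All 15 from 50 to 100 FPKM were lower, against 65.9%, and 10 were at least 1.1-fold lower, against 19.9%. All 4 above 100 FPKM were lower, against 64.6%, and 3 were at least 1.1-fold lower, against 18.1%. Within the 47 loci the correlation of the control level (log2) with the log2 ratio was weak (Pearson r = -0.31, Spearman rho = -0.20), a description over genes that share the same libraries and are not independent.

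**Figure D2:**
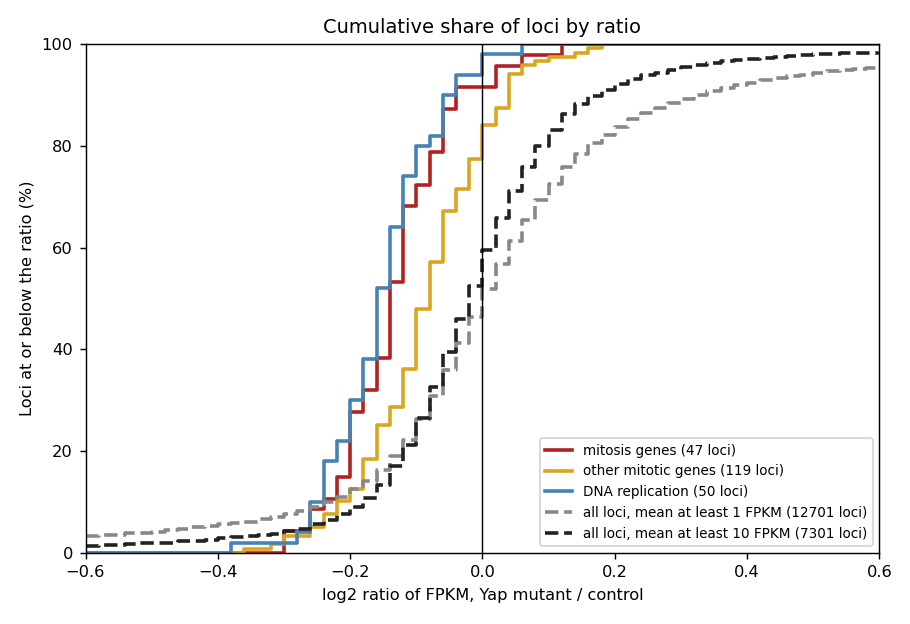
Cumulative share of loci (%) at or below each log2 ratio of mutant to control FPKM, for the 47 mitosis loci, 119 other mitotic loci, 50 DNA replication loci, and all loci whose mean reached 1 or 10 FPKM. At a ratio of 0 the mitosis line has reached 91.5% and the 2 lines of all loci 51.8% and 59.5%.

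The 2 values of *Yap1*, the targeted gene, were 76.1 FPKM in control and 65.6 in mutant lungs (log2 ratio -0.21), in RNA that also holds the mesenchyme. Markers of several cell types differed between the 2 values as well. Over the 12701 background loci, for comparison, 6578 were lower and 6123 higher in the mutant, with a median log2 ratio of -0.01. Epithelial markers were lower at 18 of 20 loci (median log2 ratio -0.62, summed FPKM 777.9 in control and 673.4 in mutant), smooth muscle markers at 5 of 6 (median -1.06), and neural markers at 6 of 7 (median -0.56). Mesenchymal markers were higher at 10 of 15 loci (median 0.06), endothelial markers at 8 of 10 (0.15), erythroid markers at 10 of 10 (0.15) and macrophage markers at 5 of 6 (0.19). Cardiac muscle markers summed to 120.4 FPKM in control and 880.4 in mutant lungs, and liver markers to 9.21 and 41.2. No marker was listed at 0 in either genotype. 4 Y-linked genes summed to 0.0306 FPKM in control and 36.4 in mutant lungs. The part of these differences in tissue and sex composition in the mitosis values was not tested, and in whole lungs fewer dividing cells and less RNA per dividing cell cannot be told apart.

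**Figure D3:**
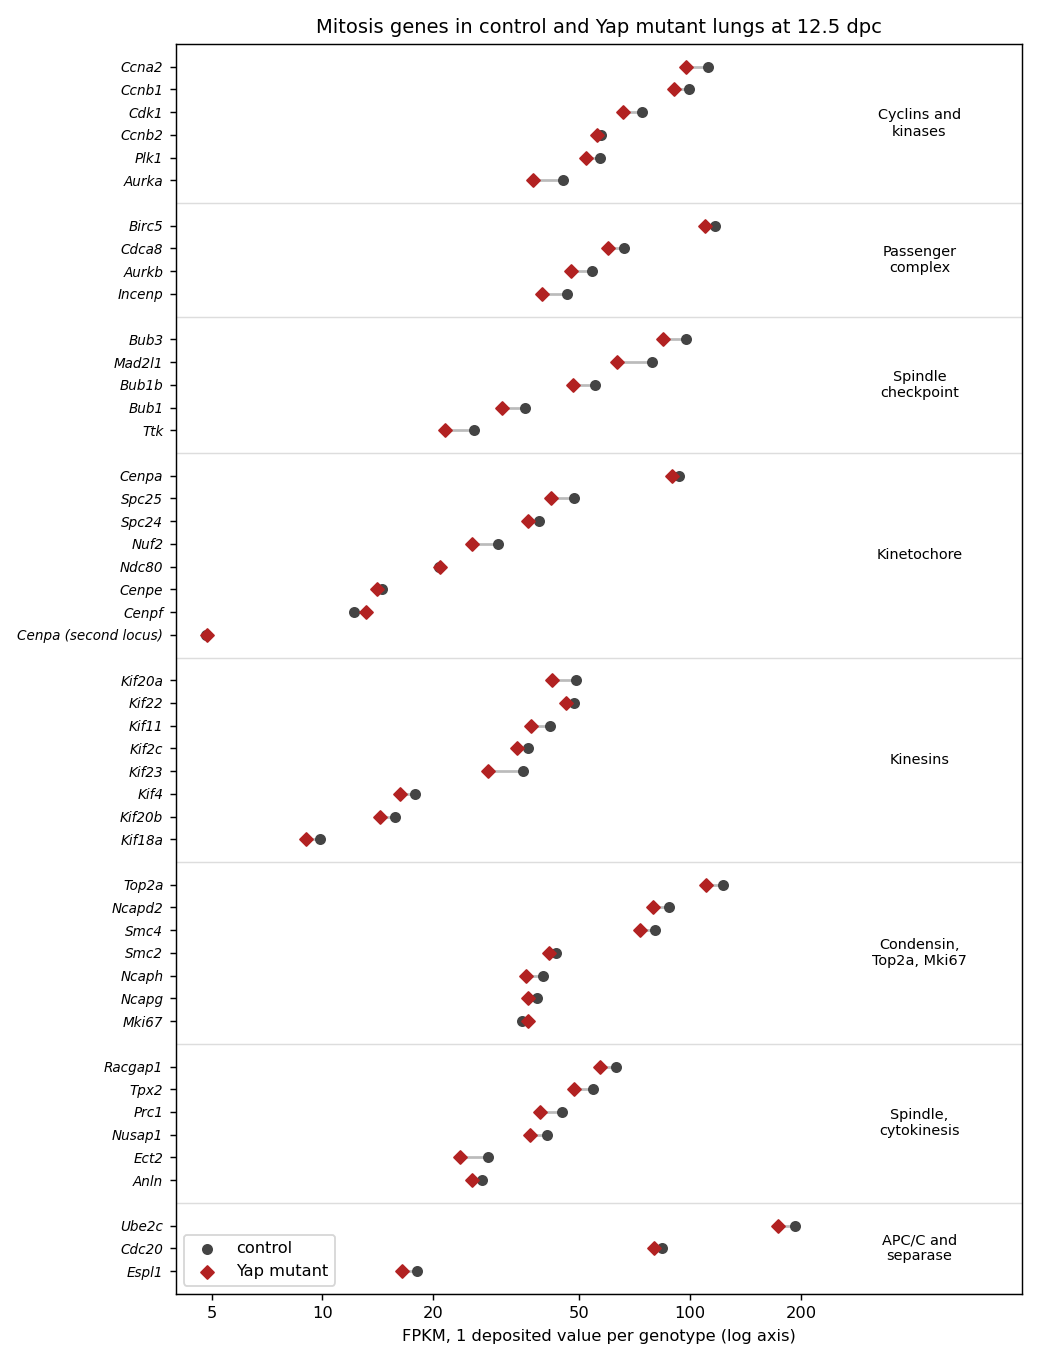
FPKM of each of the 47 mitosis loci in control (dark circles) and *Yap* mutant (red diamonds) lungs on a log axis, by function and by control level, with 1 deposited value per genotype and so no error bars. The diamond lies left of the circle for 43 loci, with the widest gaps at *Mad2l1* and *Kif23*.

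The kinase and cyclin genes were lower at all 6 loci, against 51.8% of all loci, with a median log2 ratio of -0.16. At 4 they were at least 1.1-fold lower, against 19.5%. With totals set equal they were lower at 5, against 39.9%, since *Ccnb2* then had a log2 ratio of 0.00109. *Aurka*, the kinase of centrosome maturation and spindle assembly (chr2:172356196-172382449), stood at 45.1 FPKM in control and 37.5 in mutant lungs, a log2 ratio of -0.27. *Ccna2*, the cyclin of S phase and mitotic entry, stood at 112 and 97.6 FPKM (-0.19). *Cdk1*, the kinase that these cyclins activate, stood at 74.1 and 65.7 FPKM (-0.17). The B-type cyclins, which carry CDK1 into mitosis, were unlike each other: *Ccnb1* was lower by a log2 ratio of -0.14, and *Ccnb2* had 57.3 FPKM in control and 55.7 in mutant lungs (-0.04), the smallest gap of the group. *Plk1*, the polo-like kinase of centrosomes, kinetochores and cytokinesis, stood at 57.0 and 51.9 FPKM (-0.13).

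The chromosomal passenger complex corrects faulty kinetochore attachments and later moves to the spindle midzone. Its 4 genes were all lower, against 51.8% of all loci, 3 of them at least 1.1-fold, against 19.5%, with a median of -0.17. *Incenp*, the scaffold that activates the kinase of the complex, stood at 46.1 FPKM in control and 39.4 in mutant lungs (-0.23). *Aurkb*, that kinase, stood at 54.0 and 47.5 (-0.18). *Cdca8*, encoding borealin, stood at 66.0 and 59.6 (-0.15). *Birc5*, encoding survivin, was the most abundant of the 4 and the least different, at 117 and 109.9 FPKM (-0.09). Although their proteins act together, the control levels of the 4 transcripts lay 2.53-fold apart.

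The spindle checkpoint group had the lowest median of the 8 groups, -0.21. All 5 of its genes were at least 1.1-fold lower, against 19.5% of all loci. *Mad2l1*, encoding the MAD2 protein that binds and holds back CDC20 (chr6:66535235-66547182), stood at 78.8 FPKM in control and 63.2 in mutant lungs, with the log2 ratio of -0.32 that is the lowest of all 47 loci. *Ttk*, the MPS1 kinase that starts checkpoint signaling at the kinetochore, stood at 25.8 and 21.6 (-0.26). The remaining genes encode the BUB proteins that carry the signal. *Bub1*, a kinase, stood at 35.5 and 30.7 FPKM, and *Bub1b*, encoding BUBR1, at 55.2 and 47.9. *Bub3*, their shared binding partner, stood at 97.2 and 84.4. The ratios of these 3 genes were alike, from -0.21 to -0.20. Summed over the group, the level was 292.6 FPKM in control and 247.8 in mutant lungs. The difference between this group and the others was not tested.

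The kinetochore group had the highest median, -0.06 over 8 loci. Of these, 5 were lower, against 51.8% of all loci, and 3 were higher. At least 1.1-fold lower were 2, against 19.5% of all loci. With totals set equal the median of the group was -0.01. Its genes of the Ndc80 complex, the 4-protein rod that grips microtubules, had ratios spread from -0.24 to 0.01. *Nuf2* stood at 30.1 FPKM in control and 25.6 in mutant lungs (-0.24), and *Spc25* at 48.3 and 41.8 (-0.21). *Spc24* stood at 38.9 and 36.2 (-0.11), and *Ndc80* itself at 20.7 and 20.8 (0.01). In control lungs the 4 transcripts lay 2.33-fold apart. *Cenpa*, the histone H3 variant that marks centromeric chromatin, stood at 93.1 and 89.1 FPKM (-0.06) at its main locus and at 4.83 and 4.85 (0.01) at a second locus listed with the same coordinates, chr5:30666884-30674826. The motor *Cenpe*, which moves chromosomes to the spindle equator, stood at 14.5 and 14.1 (-0.05). *Cenpf*, a large protein of the outer kinetochore (chr1:189640614-189688094), stood at 12.2 and 13.2 FPKM, and its log2 ratio of 0.11 was the highest of the 47.

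The kinesins, motors that move along microtubules or take them apart, were lower at all 8 loci, against 51.8% of all loci. At least 1.1-fold lower were 3, against 19.5%, and the median was -0.13. *Kif23*, encoding the motor of centralspindlin at the spindle midzone (chr9:61917278-61946832), stood at 35.1 FPKM in control and 28.2 in mutant lungs, a log2 ratio of -0.31. *Kif20a*, a motor of the midzone needed for cytokinesis, stood at 48.8 and 42.1 (-0.21). *Kif11*, the motor that pushes spindle poles apart, stood at 41.5 and 36.9 (-0.17). The other motors were within 1.1-fold. *Kif4*, a chromosome-bound motor on chromosome X, stood at 17.8 and 16.2 FPKM (-0.14), and *Kif20b*, a motor of cytokinesis, at 15.7 and 14.3 (-0.13). *Kif18a*, which damps chromosome oscillation, had the lowest level of the group, 9.88 and 9.05 (-0.13). *Kif2c*, which depolymerises microtubules at centromeres, stood at 36.2 and 33.7 (-0.10), and *Kif22*, which pushes chromosome arms outward, at 48.3 and 45.8 (-0.08).

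The genes of condensin I, *Top2a* and *Mki67* had a median of -0.13 over 7 loci (-0.09 with totals set equal). Of these loci 6 were lower, against 51.8% of all loci, and 3 at least 1.1-fold lower, against 19.5%. *Top2a*, the topoisomerase that untangles sister DNA, stood at 123 FPKM in control and 110.4 in mutant lungs (-0.15). The 5 condensin subunits, which fold chromosomes for mitosis, lay within a narrower band of ratios than the Ndc80 complex, from -0.15 to -0.07. *Ncapd2* stood at 87.8 and 79.1 FPKM (-0.15) and *Ncaph* at 39.7 and 35.8 (-0.15), these being regulatory subunits. *Smc4* stood at 80.1 and 73.2 (-0.13) and *Smc2* at 43.3 and 41.4 (-0.07), these being the paired ATPase arms. *Ncapg*, the remaining regulatory subunit, stood at 38.4 and 36.1 (-0.09). *Mki67*, encoding the Ki-67 protein that coats mitotic chromosomes and is widely stained as a mark of cycling cells, was at 34.9 FPKM in control and 36.2 in mutant lungs, a log2 ratio of 0.05.

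All 6 genes of spindle assembly and cytokinesis were lower, against 51.8% of all loci, with a median of -0.16. Of these, 5 were at least 1.1-fold lower, against 19.5%. *Ect2*, the exchange factor that activates RhoA for the contractile ring (chr3:27097222-27153878), stood at 28.2 FPKM in control and 23.7 in mutant lungs (-0.26). *Prc1*, which bundles the midzone microtubules, stood at 44.9 and 39.0 (-0.20). *Tpx2*, which activates aurora A on the spindle, stood at 54.3 and 48.2 (-0.17). *Racgap1*, the partner of KIF23 in centralspindlin and the anchor of ECT2, stood at 62.9 and 56.9 FPKM (-0.14), against the -0.31 of *Kif23*. *Nusap1*, which bundles spindle microtubules, stood at 40.7 and 36.8 (-0.15). *Anln*, encoding the ring scaffold anillin, stood at 27.2 and 25.6 (-0.09), at a locus of the table that spans 11 other protein-coding genes.

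The 3 genes of mitotic exit were lower, against 51.8% of all loci, with a median of -0.14. At least 1.1-fold lower was 1 of them, against 19.5%. *Ube2c*, the ubiquitin-conjugating enzyme of the anaphase-promoting complex (chr2:164769929-164772902), had the highest level of the 47 loci, 193 FPKM in control and 173 in mutant lungs (-0.16). *Cdc20*, the activator of that complex and the target of the checkpoint, stood at 83.8 and 79.7 (-0.07). *Espl1*, encoding separase, had a ratio of -0.14.

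**Figure D4:**
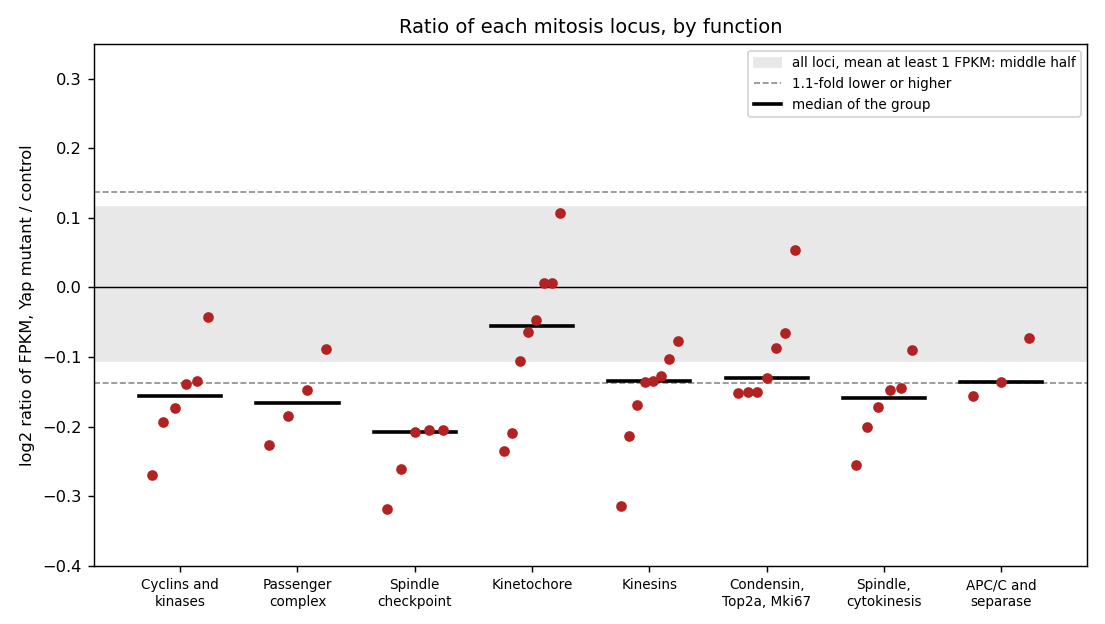
Log2 ratio of mutant to control FPKM of each mitosis locus (points) in 8 functional groups, with the group median (black bar), the 1.1-fold lines (dashed) and the middle 50% of all loci whose mean reached 1 FPKM (grey band). All 5 checkpoint points lie under the lower dashed line, and the 4 points above 0 are *Ndc80*, the second *Cenpa* locus and *Cenpf* in the kinetochore group and *Mki67* beside condensin.

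Other genes of the cell cycle were read from lists of the same table. A further 119 mitotic loci, from anaphase-promoting complex subunits to cohesin and the centrosome, had a median log2 ratio of -0.09, with 100 lower (against 51.8% of all loci), 36 at least 1.1-fold lower (against 19.5%) and 2 at least 1.1-fold higher (against 21.9%). Those with the lowest ratios were *Anapc10*, a subunit of the anaphase-promoting complex (17.4 FPKM in control and 13.5 in mutant lungs, -0.37), *Ska1*, of the outer kinetochore (9.98 and 7.96, -0.33), and *Esco2*, the cohesin acetyltransferase (12.7 and 10.2, -0.32). The next were the mitotic kinase *Pbk* (48.2 and 38.7, -0.32) and the spindle protein *Ckap2* (27.9 and 23.1, -0.27). Among these lists the 18 further kinases and regulators and the 30 further kinetochore and centromere loci each had a median of -0.13, and the 13 further anaphase-promoting complex subunits and 12 cohesin loci had a median of -0.06. The word TTTGAA was in the promoters of 36.6% of the 93 of these genes with a promoter.

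Genes of DNA replication, which act before mitosis, were lower at 49 of 50 loci, against 51.8% of all loci, and at least 1.1-fold lower at 33, against 19.5%, with a median of -0.16. The lowest ratios were those of *Cdc6*, which loads the replicative helicase (15.7 FPKM in control and 11.9 in mutant lungs, -0.39), *Rfc3*, of the clamp loader (47.1 and 38.4, -0.29), and *Tyms*, thymidylate synthase (105 and 87.2, -0.27). TTTGAA was in 16.7% of the 42 replication genes with a promoter, against the 76.9% of the mitosis genes. Whether the word bears on the ratios was not tested. G1 cyclins, CDKs and their inhibitors were lower at 12 of 16 loci, against 51.8%, with a median of -0.12, and the largest gap was at *Ccnd1*, encoding cyclin D1, at 98.9 and 61.3 FPKM (-0.69). *Ccne2*, encoding cyclin E2, stood at 12.4 and 9.48 (-0.39).

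The transcriptional regulators that act on CHR and E2F promoters were lower at 19 of 21 loci, against 51.8% of all loci. At 11 they were at least 1.1-fold lower, against 19.5%, and the median was -0.15. *Mybl2*, encoding B-MYB, stood at 16.7 FPKM in control and 13.4 in mutant lungs (-0.32), and *Foxm1*, which joins it at G2/M promoters, at 31.2 and 25.9 (-0.27) at a locus that carries a second gene symbol. *E2f1*, an activator of S phase genes, stood at 22.1 and 18.1 (-0.29), and *E2f5*, a repressor-class E2F, at 25.4 and 21.1 (-0.27). Of the 5 genes of the MuvB core, *Lin52* stood at 9.06 and 7.47 (-0.28), *Lin54*, its DNA-binding subunit, at 9.12 and 7.78 (-0.23), and *Lin9* at 8.35 and 8.31 (-0.01). *Lin37* stood at 11.8 and 10.9 (-0.11), and *Rbbp4*, a histone-binding subunit, at 135.8 and 125.4 (-0.11). *Rbl2*, encoding p130 of the resting DREAM complex, was at 5.77 and 6.19 FPKM (0.10), and *Rbl1*, encoding p107, at 16.6 and 14.9 (-0.15). Differences between these lists and the mitosis genes were not tested, and all lists rest on the same 6 libraries.

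The mitosis genes lie across the genome (mm10), with 9 of the 46 (19.6%) on chromosome 2, against 7.82% of the background loci. Those on chromosome 2 were *Aurka*, *Bub1*, *Bub1b*, *Kif18a*, *Ncaph*, *Nusap1*, *Spc25*, *Tpx2* and *Ube2c*, which belong to 7 of the functional groups. No mitosis locus carried a second gene symbol, but 9 of the 47 overlapped another protein-coding gene of RefSeq, among them *Aurka* with *Cstf1*, *Ccna2* with *Exosc9* and *Cdc20* with *Elovl1*. Reads of overlapping genes on the same strand may be shared between them. Both ends were those of RefSeq at 10 of the 47 loci, and some loci were longer than the gene. *Mad2l1* spanned 11948 bases against 5887 in RefSeq, *Kif20a* 53122 against 8654 and *Ncapg* 188136 against 30657.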

How the data were processed

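At 12.5 *dpc*, RNA of whole lungs was prepared from wild-type and *Yap*-flox/flox; *Shh*-Cre/+ littermates, with 3 libraries per genotype. Strand-specific paired-end libraries were sequenced by Illumina chemistry, and alignment and expression values came from the authors' runs on the Maverix platform. The submitters' processing notes name TopHat, Cuffdiff and build mm10, without versions. The deposited values are FPKM, 1 per genotype and locus, in 2 tables: all loci, and a subset chosen by the authors' own comparison. The header does not name the unit, which was read from the layout of Cuffdiff output. The tables also hold the authors' log2 fold changes and unadjusted p-values, which were not used. Neither counts nor depth per library is known here, so that no interval, standard deviation or test could be computed.

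Log2 ratios of mutant to control FPKM were computed with no pseudocount for loci whose mean reached 1 FPKM. Python 3.11.15 was used (numpy 2.4.6, scipy 1.17.1, pandas 2.3.3, matplotlib 3.10.9). The calculation was tested on simulated data with a set shift, which checks the arithmetic only. Calls are folds of at least 1.1 or 1.2. Values of the subset table served only as an alternative, and of 2395 shared loci 25 differed by over 1%, none of them a mitosis locus. Locus coordinates are those of the file, counted from 1. Members and lists were chosen with earlier results of these data known. All 46 members could be named. From each other list the genes whose mean reached 5 FPKM with a fold of at least 1.2 could be named, at most 5 per list, and *Lin37*, *Lin54*, *Lin9*, *Rbbp4*, *Rbl1* and *Rbl2* were named after their values were seen. *Sept2*, *Sept7*, *Sept9*, *Sgol2a* and *Hbb-bt* of the other lists were not analysed here. Promoters came from RefSeq GRCm38.p6 and words were searched on both strands. Alternatives were other minimums, pseudocounts, scalings, folds and sets of loci.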

Additional observations from a re-analysis of the deposited data

How the results depend on the processing

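The median log2 ratio of the 47 mitosis loci and the number of them lower in the mutant stayed of the same sign and within 1.5 times under every alternative run that could change them. The median ran from -0.15 to -0.10. The number at least 1.1-fold lower, 26, was 15 (14.1% of all loci) with both genotypes scaled to the same total, 3 at a fold of 1.2 (8.94%) and 0 at a fold of 1.5 (3.42%). It stayed within 1.5 times of 26 with a mean of at least 5, 0.1 or 1 added to both values and ratios centred on the median of all loci (25). Removing the minimum, taking the subset table and leaving out loci of several symbols say nothing of stability, since no mitosis locus is under the minimum, differs by over 1% between the tables or has several symbols. The same held for 3 alternatives chosen after seeing the data: a mean of at least 10, without the second *Cenpa* locus, and without the 9 loci that overlap another coding gene (median -0.15, 34 of 38 lower, 21 at least 1.1-fold). With the same total, the log2 ratio of *Ccnb2* turned from -0.04 to 0.00109, 17 other gene and group values moved by over 1.5 times, and the share of all loci that were lower went from 51.8% to 39.9%. No paired analysis was possible because the tables hold 1 value per genotype, and for the same reason no library could be left out. Precision is limited by the lack of values per library. No gap can be set against a spread, neither those under 1.1-fold, as in 21 of the 47 loci, nor the larger ones.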
